A study of Homo sapiens with 6 samples.

Results

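Oxidative phosphorylation is carried out by 5 protein complexes of the inner mitochondrial membrane, and most of their subunits are encoded in the nucleus. The genes described here are those nuclear subunit genes, taken from the table of all measured genes by symbol alone (the NDUFA, NDUFB, NDUFC, NDUFS and NDUFV series, SDHA to SDHD, the UQCR genes, the COX4 to COX8 genes and the ATP5 genes). The rule used no measured value and found 83 of the 13271 genes in the table. Of these, 35 belong to complex I, 4 to complex II, 8 to complex III, 13 to complex IV and 17 to complex V. The other 6 match by symbol but are no subunit: ATP5IF1, the inhibitor of ATP synthase, the intronless copy UQCRHL, the pseudogenes COX6CP1, COX6A1P2 and UQCRFS1P1, and the divergent transcript NDUFA6-DT.

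RNA was sequenced from 5637, an established human bladder cancer cell line, in 3 libraries of cells transfected with a MAT1A plasmid and 3 libraries of control cells that received an empty vector. Both groups went through the same lipid transfection and were lysed 48 h afterwards. MAT1A encodes a methionine adenosyltransferase, the enzyme that makes the methyl donor S-adenosylmethionine and that is best known from liver. The labels do not say whether libraries with different numbers came from separate cultures, so the p-values measure only how far these libraries scatter, possibly for technical reasons, and transfected cells were not separated from untransfected ones.

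Complex I (NADH dehydrogenase) and complex II (succinate dehydrogenase) pass electrons to ubiquinone, complex III passes them on to cytochrome c and complex IV (cytochrome c oxidase) to oxygen. The protons pumped by complexes I, III and IV drive complex V, the ATP synthase. Nuclear subunits have to be built together with a few subunits encoded in mitochondrial DNA, for which no row was present in the table used here, and factors such as NRF1, the ETS factor GABP, YY1 and ESRRA are known regulators of many nuclear subunit genes.

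Levels are given on the deposited scale, which is close to CPM, the reads of a gene set against the total of its library. The recovered reads came to 18.7, 19.8 and 21.6 M in MAT1A libraries 1, 2 and 3 and to 17.4, 19.8 and 20.7 M in control libraries 1, 2 and 3, so that 3 reads are worth between 0.140 and 0.172 on this scale. MAT1A itself stood at 1805, 1834 and 1917 in MAT1A libraries 1, 2 and 3, against 1.09, 0.253 and 4.54 in the control libraries, which matches the labels. All 9 epithelial markers looked for (keratins 5, 7, 8, 17, 18 and 19, EPCAM, CDH1 and TP63) were present. Their summed level was 12624, 13360 and 12149 in MAT1A libraries and 11663, 11649 and 11377 in control libraries, and 5 of the 9 were called higher. The word called is used as defined below, and over all genes tested 4.01% were called higher and 7.4% lower. Some markers of other cell types were called lower. Of 20 skeletal muscle markers tested 16 were called lower and 0 higher, and the list summed to 182, 133 and 121 in MAT1A libraries 1, 2 and 3 against 643, 263 and 188 in control libraries 1, 2 and 3. A large part of the lower sums was TNNT1, at 73.8, 78.8 and 70.5 in MAT1A libraries against 81.8, 86.4 and 77.3 in control libraries. Of 3 fibroblast collagens tested 1 was called lower, and they summed to 125, 128 and 121 in MAT1A libraries against 259, 151 and 143 in control libraries. The blood marker HBB was called lower, at 27.4, 7.20 and 5.87 in MAT1A libraries against 52.2, 33.9 and 26.2 in control libraries. The muscle forms of cytochrome c oxidase subunits, COX6A2 and COX7A1, had no row, nor had the muscle markers TNNC1 and MB. The fibroblast markers DCN, LUM and PDGFRB and the blood markers PTPRC, CD68 and HBA1 had no row either. The part of these marker differences in the values below was not tested.

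The nuclear subunit genes were, as a group of transcripts, slightly higher after MAT1A transfection. Summed over the 81 members that passed the filter on low values (at least 1 in at least 3 libraries), their level was 8294, 8792 and 8373 in MAT1A libraries 1, 2 and 3, against 7859, 8075 and 7888 in control libraries 1, 2 and 3. The 3 MAT1A libraries thus lay above the 3 control libraries, and the mean was 6.87% higher. In bulk RNA, a change in the share of cells and a change in the RNA per cell cannot be told apart. This summed level was 0.823%, 0.866% and 0.833% of all values in MAT1A libraries and 0.787%, 0.805% and 0.791% in control libraries. The log2 change, the difference between MAT1A and control means of log2(value + 1), was above 0 for 75 of the 81 members, against 51.5% of all 12866 genes tested, and its median was 0.089 against 0.0040 for all genes.

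Single genes changed little, and most did not pass the test. With limma's moderated test and a Benjamini-Hochberg adjusted p under 0.05 over all genes tested, which is what "called" means throughout, 12 members were called higher and 2 lower, and 67 were not called. Over all genes tested 4.01% were called higher and 7.4% lower. The 12 that rose were ATP5F1B, ATP5F1D, ATP5MC1 and ATP5F1A of complex V, COX5B, COX7B, COX5A and COX7C of complex IV, UQCR10 and UQCRH of complex III, SDHB of complex II and NDUFS5 of complex I, and the 2 that fell were NDUFC2 and NDUFA5 of complex I. All 3 MAT1A libraries lay above all 3 control libraries for 30 members and below them for 3 (NDUFC2, NDUFA5 and SDHD), where 14.7% and 15.6% of all genes tested did so. With the replicate number as a block, 27 members were called higher and 2 lower, against a background of 7.57% and 10.4%. At an adjusted p under 0.01 there remained 2 members, ATP5F1B and ATP5MC1, against a background of 1.36% called higher.

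The counts depended on single libraries. Without control library 1 the test called 1 member higher and 1 lower, where the background was 1.82% and 4.58%. Without control library 3 it called 2 higher and 0 lower, where the background was 1.75% and 4.44%. Without MAT1A library 2 it called 6 higher and 1 lower, where the background was 3.73% and 6.47%. MAT1A library 2 was the highest of the MAT1A libraries for 66 of the 81 members (81.5%), against 37.3% of all genes tested. The median log2 difference of the members from the control mean was 0.053, 0.147 and 0.069 in MAT1A libraries 1, 2 and 3, and -0.013, 0.018 and -0.0089 in control libraries 1, 2 and 3. The members are also short transcripts, with a median exon length of 2462 bases against 5106 for all genes tested. When a trend of the log2 values with exon length and GC content was removed from each library, 34 members were called higher and 1 lower, and the background rose to 9.96% higher and 7.24% lower.

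**Figure D1:**
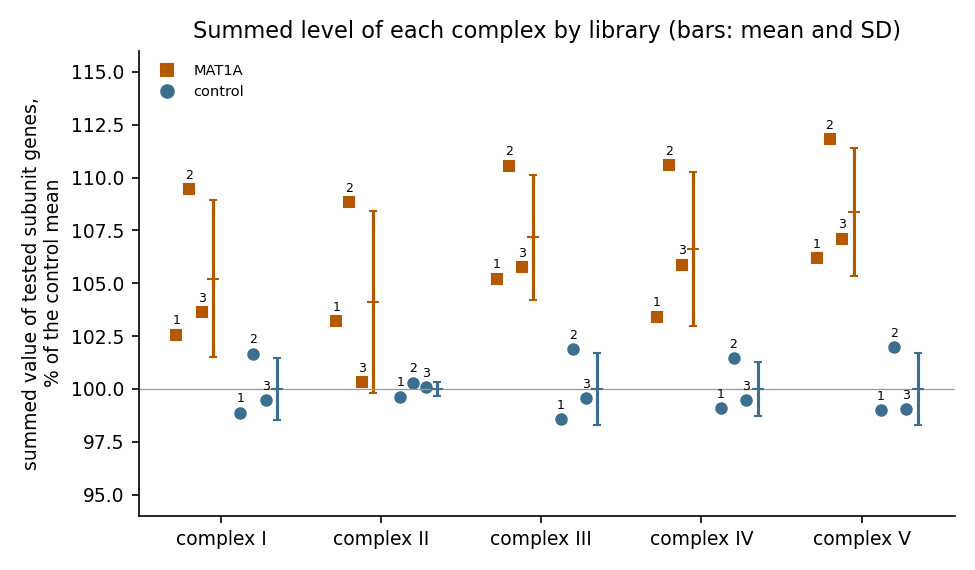
Summed level of the tested subunit genes of each complex in each library, as a percent of the control mean of that complex (y axis), by complex (x axis); squares are MAT1A libraries, circles control libraries, numbers the library numbers, and bars the mean and SD of 3 libraries. On the deposited scale the MAT1A libraries lie above the control libraries in all 5 complexes, narrowly so for MAT1A library 3 in complex II, and MAT1A library 2 is the highest in each. As a share of all values, complex II in MAT1A library 3 was at 0.03430%, below the control libraries (0.03431%, 0.03438% and 0.03448%).

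The summed level was higher in MAT1A libraries in each complex: by 8.36% in complex V, 7.17% in complex III, 6.63% in complex IV, 5.22% in complex I and 4.12% in complex II. On the same scale the sum over all genes tested was 1.03% higher. The sum of complex V rests in large part on ATP5F1B, and without that gene it was 6.43% higher. The median log2 change of the members was 0.089 in complex V, 0.107 in complex III, 0.099 in complex IV, 0.072 in complex I and 0.047 in complex II, so the order of the complexes depends on the measure. Without MAT1A library 2 the sums were 6.64%, 5.48%, 4.65%, 3.10% and 1.76% higher for complexes V, III, IV, I and II. Complex V summed to 3148, 3314 and 3175 in MAT1A libraries 1, 2 and 3 and to 2934, 3023 and 2936 in control libraries. Complex I summed to 2318, 2474 and 2342 in MAT1A libraries and to 2235, 2298 and 2248 in control libraries. In both the groups did not overlap, and the differences between complexes themselves were not tested. Called higher were 1 of 34 tested members of complex I, 1 of 4 of complex II, 2 of 8 of complex III, 4 of 13 of complex IV and 4 of 17 of complex V, and both members called lower were in complex I. Over all genes tested 4.01% were called higher and 7.4% lower. In complex I the shares were 2.94% and 5.88%, both below those of all genes.

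**Figure D2:**
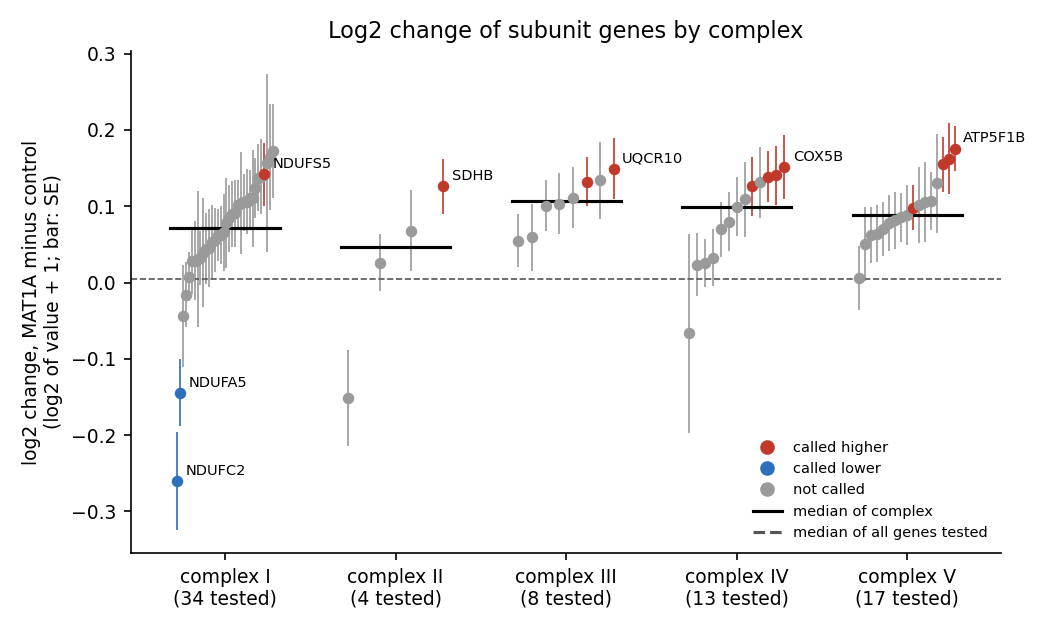
Log2 change (MAT1A minus control, on the scale of log2 of the value + 1; y axis) of each tested subunit gene, ordered by size within its complex (x axis); bars are standard errors of limma's fit, red and blue mark genes called higher and lower, and black lines the median of each complex. Nearly all points lie above the dashed median of all genes tested, 12 are called higher, and the 2 called lower, NDUFC2 and NDUFA5, are at the low end of complex I.

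Promoter sequence was taken from RefSeq (GRCh38.p14), where 62 of the 77 subunit genes had an entry; among the called genes, ATP5F1B, ATP5F1D, NDUFC2 and NDUFS5 had none. Each window runs from 250 bases before a transcription start to 50 bases after it, and some genes have several starts. Both strands were searched for the letters GCGCANGCG for NRF1, CCGGAAG for ETS factors, AAGATGGC for YY1 and TCAAGGTCA for ESRRA. The last letters of the ETS motif are the first of the YY1 motif, so that a stretch can hold both. The ETS letters were in 28% of the 75 windows of members and in 10.3% of all 35116 windows in the table. The NRF1 letters were in 28% of member windows and 7.52% of all windows, the YY1 letters in 16% and 2.89%, and the ESRRA letters in 1.33% and 0.353%. Among the 9 genes called higher that had an entry, 4 held the ETS letters (ATP5F1A, COX5B, SDHB and UQCRH), 1 the NRF1 letters (UQCR10) and 1 the YY1 letters (SDHB). Among the other 53 genes with an entry, 16 held the ETS letters, 20 the NRF1 letters and 10 the YY1 letters. These matches describe the letters in the windows and are not binding sites. Upstream sequence is printed below for called genes of complexes II to V, 3 with the ETS letters before the start and 2 without any of the motifs, in lower case with the ETS letters in capitals. Upstream is counted from the RefSeq start. For each printed gene the GENCODE gene range given below reaches into the printed stretch. For SDHB and UQCRH that range covers the ETS letters.

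Complex I is the largest of the complexes, with a peripheral arm that oxidizes NADH and a membrane arm that pumps protons. Both members called lower belong to it, 5.88% of those tested, where 7.4% of all genes tested were called lower. The median log2 change of its 34 tested members was 0.072, and 30 of them were above 0. NDUFS5, an accessory subunit of the membrane arm (chr1:39026318-39034636, plus strand), was at 124, 141 and 131 in MAT1A libraries 1, 2 and 3, against 118, 122 and 118 in control libraries. All 3 MAT1A libraries were above the control libraries, and library 2 was the furthest above. The log2 change of NDUFS5 was 0.14 (SE 0.042, adjusted p = 0.0374 by limma), and the call was lost in 4 of the 6 fits that left out 1 library. NDUFS5 also had the highest level per kb of exon in complex I, 241 per kb in MAT1A cells and 218 per kb in control cells.

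NDUFC2 fell. This accessory subunit of the membrane arm (chr11:78068304-78080219, minus strand) was at 22.0, 20.2 and 22.9 in MAT1A libraries 1, 2 and 3, against 24.7, 25.8 and 28.2 in control libraries, which is 17.2% lower. The groups did not overlap, MAT1A library 2 was the lowest of all, and control library 3 the highest. The log2 change was -0.26 (SE 0.064, adjusted p = 0.0145 by limma), and it lost its call only in the fit without control library 3, where the log2 change was -0.21. NDUFC2 shares 431 exon bases on the same strand with the readthrough gene NDUFC2-KCTD14, and without strand or long reads the share of each cannot be told apart. KCTD14, its downstream neighbour, was at 4.42 ± 0.34 in MAT1A cells and 4.22 ± 0.18 in control cells (SD, n = 3 each).

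NDUFA5, an accessory subunit of the peripheral arm (chr7:123536997-123558255, minus strand), was at 56.2, 52.1 and 53.0 in MAT1A libraries 1, 2 and 3, against 61.8, 58.2 and 58.6 in control libraries. All 3 MAT1A libraries were below the control libraries, and library 1 was the highest of each group. The log2 change was -0.14 (SE 0.044, adjusted p = 0.0443 by limma). This call was lost in 5 of the 6 fits that left out 1 library and when the trend with length and GC content was removed, where the log2 change was -0.053 and the adjusted p 0.397. NDUFA5 has 12 annotated pseudogene copies by name, so its reads are also uncertain between copies.

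The core subunits of complex I, which hold the flavin and the iron-sulfur clusters, did not pass the test: 6 of the 7 were tested and 0 called by limma, edgeR or DESeq2, with 2 at an unadjusted p under 0.05 by each tool and a median log2 change of 0.093. By limma 26.2% of all genes tested had an unadjusted p under 0.05. NDUFV1, the subunit that binds NADH, came nearest. It was at 197, 205 and 191 in MAT1A libraries 1, 2 and 3, against 183, 184 and 184 in control libraries, so the groups did not overlap. Its log2 change was 0.10 with an adjusted p of 0.0578 by limma, and with the replicate block the adjusted p was 0.0164. NDUFS1, the largest iron-sulfur subunit, was at 141 ± 2.3 in MAT1A cells and 140.4 ± 1.5 in control cells (SD, n = 3 each), with overlapping groups. The median log2 change was 0.073 over the 14 tested members of the peripheral arm and 0.072 over the 20 of the membrane arm.

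NDUFV2, another core subunit, was under the filter. It is named here after its values were seen: 1.02, 0.771 and 1.21 in MAT1A libraries 1, 2 and 3 and 0.804, 0.707 and 0.483 in control libraries, the lowest of the core subunits. It shares 771 exon bases with another annotated gene, AP005263.1. NDUFA6-DT, a divergent transcript and no subunit, was also under the filter, at 0.916, 0.771 and 0.932 in MAT1A libraries and 0.976, 1.41 and 0.917 in control libraries.

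Sharing of exons went with the level at which subunit genes were listed. The 16 subunit genes that share exon bases with another protein-coding gene on the same strand had a median level of 12.7 per kb, and the 28 that share exon bases in other ways (on the opposite strand, or with a gene that is not protein-coding) one of 36.5 per kb. The 33 that share none had a median of 46.1 per kb. Of these 33, 10 were called higher and 1 lower, where 4.01% and 7.4% of all genes tested were. Among the 16 the counts were 0 and 1, and among the 27 tested of the 28 they were 2 and 0. Levels per kb divide by all annotated exon bases of a gene, so long annotated exons lower them. The sources used here do not give how reads in shared stretches were counted. The parts of that counting and of exon length in these levels were not tested.

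Complex II oxidizes succinate and is also an enzyme of the TCA cycle; all of its subunits are nuclear. SDHB, its iron-sulfur protein (chr1:17018722-17054170, minus strand), was at 130.7, 139.8 and 131.2 in MAT1A libraries 1, 2 and 3, against 121, 122 and 124 in control libraries. All 3 MAT1A libraries were above all 3 control libraries. The log2 change of SDHB was 0.13 (SE 0.036, adjusted p = 0.0305 by limma), and 2 of the 6 fits without 1 library kept the call. SDHA, the flavoprotein that takes up the electrons, was at 139 ± 6.7 in MAT1A cells and 136 ± 0.74 in control cells (SD, n = 3 each), and the groups overlapped. SDHD, a membrane anchor named here after its values were seen, was at 23.2, 22.5 and 23.4 in MAT1A libraries, against 25.9, 23.6 and 27.8 in control libraries; all MAT1A libraries were below the control libraries, but the log2 change of -0.15 had an adjusted p of 0.136 by limma. Complex II as a whole thus held 1 member called higher, and its summed level was 355, 374 and 345 in MAT1A libraries and 342, 345 and 344 in control libraries. Without MAT1A library 2 the sum was still 1.76% higher, but the median log2 change of the 4 genes was 0.0044. In MAT1A library 3 the median difference from the control mean was -0.031. The summed level there was 0.03430% of all values, below the 0.03431%, 0.03438% and 0.03448% of control libraries 1, 2 and 3. The ETS letters of SDHB end 121 bases before the transcription start, in the stretch at chr1:17054033-17054282, read on the minus strand:
SDHB: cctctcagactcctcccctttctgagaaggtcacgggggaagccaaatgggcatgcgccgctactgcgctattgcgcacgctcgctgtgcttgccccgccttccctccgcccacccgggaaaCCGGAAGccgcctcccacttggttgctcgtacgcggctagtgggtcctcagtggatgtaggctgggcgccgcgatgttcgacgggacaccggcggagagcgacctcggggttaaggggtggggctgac

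Complex III carries electrons on to cytochrome c, and 6 of its 8 members had all MAT1A libraries above all control libraries. The share over all genes tested was 14.7%. UQCRH, the hinge protein that sits beside cytochrome c1 (chr1:46303631-46316776, plus strand), was at 217, 230.3 and 219 in MAT1A libraries 1, 2 and 3, against 199.8, 206 and 202 in control libraries. UQCR10, a small subunit (chr22:29767369-29770413, plus strand), was at 77.4, 81.4 and 77.9 in MAT1A libraries, against 71.2, 73.1 and 68.7 in control libraries. Neither gene had overlapping groups, and MAT1A library 2 was the highest for both. The log2 change was 0.13 for UQCRH (SE 0.032, adjusted p = 0.0140 by limma) and 0.15 for UQCR10 (SE 0.040, adjusted p = 0.0215 by limma), and both lost their call without control library 1 and without control library 3. UQCRFS1, the Rieske iron-sulfur protein and a catalytic subunit of the complex, was at 57.4, 57.2 and 59.2 in MAT1A libraries, against 53.0, 54.4 and 54.1 in control libraries, without overlap. Its log2 change of 0.10 had an adjusted p of 0.112 by limma. CYC1, cytochrome c1, is the other catalytic subunit encoded in the nucleus but falls outside the symbol rule and is counted with the electron carriers. Named here after its values were seen, it was at 345 ± 14.5 in MAT1A cells and 337 ± 2.8 in control cells (SD, n = 3 each), with overlapping groups and an adjusted p of 0.566 by limma. UQCRH has 4 annotated pseudogene copies by name besides UQCRHL, which was at 11.5 in MAT1A cells and 10.3 in control cells on average. With the replicate block 4 members of complex III were called higher, against the block's background of 7.57%. The ETS letters of UQCRH lie on the other strand and end 39 bases before the start, in the stretch at chr1:46303448-46303697, plus strand:
UQCRH: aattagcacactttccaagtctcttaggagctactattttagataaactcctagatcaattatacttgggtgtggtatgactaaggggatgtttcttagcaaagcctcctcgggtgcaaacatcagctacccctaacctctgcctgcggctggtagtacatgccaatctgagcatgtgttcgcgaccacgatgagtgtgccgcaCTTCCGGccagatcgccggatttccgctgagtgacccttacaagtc

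Complex IV reduces oxygen; its catalytic core is encoded in mitochondrial DNA, and the nuclear members surround that core. COX5A (chr15:74919791-74938168, minus strand), a subunit on the matrix side, was at 152, 159 and 161 in MAT1A libraries 1, 2 and 3, against 141, 142 and 145 in control libraries. COX5B (chr2:97646040-97648383, plus strand), which binds zinc, was at 114, 123 and 112 in MAT1A libraries, against 105, 109 and 99.9 in control libraries. COX7B (chrX:77899438-77907373, plus strand), a small membrane subunit, was at 119.5, 126 and 125 in MAT1A libraries, against 106, 115 and 114 in control libraries. For these 3 genes the groups did not overlap, although MAT1A library 3 for COX5B and MAT1A library 1 for COX7B came close to control library 2. The log2 changes were 0.14 for COX5A (SE 0.034, adjusted p = 0.0135 by limma), 0.15 for COX5B (SE 0.042, adjusted p = 0.0279) and 0.14 for COX7B (SE 0.039, adjusted p = 0.0276). COX7C (chr5:86617904-86620962, plus strand), a small membrane subunit, was at 203, 221 and 214 in MAT1A libraries, against 189, 205 and 191 in control libraries, and control library 2 lay above MAT1A library 1. Its log2 change was 0.13 (SE 0.039, adjusted p = 0.0451 by limma), and with edgeR on the recovered reads the adjusted p was 0.0516.

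The promoter stretches of COX5B (chr2:97645812-97646061, plus strand, with the ETS letters ending 30 bases before the start) and COX5A (chr15:74938074-74938323, minus strand, with none of the motifs) compare as follows:
COX5B: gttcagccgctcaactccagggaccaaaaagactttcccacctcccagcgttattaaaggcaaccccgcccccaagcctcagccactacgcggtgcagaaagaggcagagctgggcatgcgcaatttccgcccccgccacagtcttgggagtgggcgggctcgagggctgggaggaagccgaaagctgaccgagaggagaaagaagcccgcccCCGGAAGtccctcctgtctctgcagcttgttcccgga
COX5A: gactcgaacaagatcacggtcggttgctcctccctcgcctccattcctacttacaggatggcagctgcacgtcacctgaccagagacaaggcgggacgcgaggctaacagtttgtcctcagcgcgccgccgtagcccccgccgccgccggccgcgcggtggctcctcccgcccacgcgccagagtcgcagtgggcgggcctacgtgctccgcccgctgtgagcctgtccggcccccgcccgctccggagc

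Several complex IV subunits have paralogues, and COX6B1 with COX6B2 was the only pair of a common and a tissue-restricted form in which both had a row. COX6B1 was at 121 ± 4.3 in MAT1A cells and 115 ± 1.7 in control cells, and its testis form COX6B2 was at 1.01 ± 0.15 in MAT1A cells and 1.10 ± 0.012 in control cells (SD, n = 3 each). COX4I2, COX6A2, COX7A1, COX8C and NDUFA4L2 had no row. COX4I1, the common form of subunit IV, was at 209, 232 and 214 in MAT1A libraries 1, 2 and 3 and 216, 214 and 209 in control libraries, with overlapping groups and an adjusted p of 0.628 by limma.

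COX6A1, whose groups did not overlap, had a log2 change of 0.11 (adjusted p = 0.168 by limma), and COX7A2 one of 0.13 (adjusted p = 0.0805; 0.00655 with the replicate block). COX8A, the member with the highest level per kb in complex IV, was at 205 per kb in MAT1A cells and 194 per kb in control cells, with an adjusted p of 0.203 by limma. NDUFA4, a complex IV subunit despite its name, had a log2 change of 0.025, and COX7A2L, which takes part in joining complexes III and IV into supercomplexes, one of 0.023. Neither was called.

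Complex V makes ATP at its F1 head, turned by a ring of c subunits in the membrane part Fo. ATP5F1B, the catalytic beta subunit (chr12:56638175-56646068, minus strand), was at 977, 1021 and 978 in MAT1A libraries 1, 2 and 3, against 872, 893 and 869 in control libraries. The lowest MAT1A library was above the highest control library by more than the range within either group. The level was 13.0% higher, with a log2 change of 0.18 (SE 0.030, adjusted p = 0.000839 by limma). ATP5F1B was also the most abundant member, at 427 per kb of exon in MAT1A cells and 378 per kb in control cells, and of the 14 called members it was the only one whose call held in all 6 fits that left out 1 library. In those fits its log2 change ran between 0.15 and 0.19, and its adjusted p was at most 0.0124.

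Of the other F1 subunits, ATP5F1A, the alpha subunit that alternates with beta (chr18:46080248-46104334, minus strand), was at 435, 453 and 434 in MAT1A libraries 1, 2 and 3, against 405, 414 and 416 in control libraries. ATP5F1D, the delta subunit of the central stalk (chr19:1241746-1244826, plus strand), was at 110.5, 117 and 101 in MAT1A libraries, against 98.3, 94.6 and 100.6 in control libraries. The groups did not overlap for either gene, but for ATP5F1D MAT1A library 3 was level with control library 3 to within 1%. The log2 change was 0.098 for ATP5F1A (SE 0.030, adjusted p = 0.0426 by limma) and 0.16 for ATP5F1D (SE 0.046, adjusted p = 0.0310), and each kept its call in 1 of the 6 fits without 1 library. Summed over its 5 subunit genes, F1 was 9.69% higher in MAT1A cells, and the Fo part with the peripheral stalk 6.33% higher over 12 genes.

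The c ring is built from a single mature protein encoded by 3 genes. ATP5MC1 (chr17:48892765-48895871, plus strand) was at 110.2, 117 and 112 in MAT1A libraries 1, 2 and 3, against 100.2, 104 and 101 in control libraries, and the groups did not overlap. Its log2 change was 0.15 (SE 0.036, adjusted p = 0.00984 by limma); the call was lost without control library 1 and without control library 3. ATP5MC2 and ATP5MC3 had log2 changes of 0.089 (adjusted p = 0.162) and 0.086 (adjusted p = 0.0956), both without overlap and not called. With the replicate block ATP5MC3 was called higher (adjusted p = 0.0367). Of the summed level of the 3 genes, ATP5MC1 made up 24.8% ± 0.14 in MAT1A cells and 24.0% ± 0.54 in control cells, ATP5MC2 25.9% ± 0.47 and 26.2% ± 0.65, and ATP5MC3 49.2% ± 0.35 and 49.9% ± 0.11 (SD, n = 3 each). ATP5MC3 thus held the largest share in both groups, on a scale that is not divided by exon length. Per kb of exon the order differed. ATP5MC1 was then the highest, at 43.3 in MAT1A cells and 38.8 in control cells. ATP5MC3 was at 33.1 and 31.2 per kb, and ATP5MC2 at 29.6 and 27.8 per kb. All 3 genes have annotated copies or overlap others in exons, so the split is uncertain. No motif searched for was in the window of ATP5MC1 (chr17:48892537-48892786, plus strand):
ATP5MC1: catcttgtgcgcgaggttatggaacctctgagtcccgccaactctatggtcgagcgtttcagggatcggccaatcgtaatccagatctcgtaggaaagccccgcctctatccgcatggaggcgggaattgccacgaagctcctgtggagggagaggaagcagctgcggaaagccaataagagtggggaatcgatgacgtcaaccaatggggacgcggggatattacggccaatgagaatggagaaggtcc

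ATP5IF1, which inhibits the ATP synthase when the proton gradient fails, was at 57.9, 62.9 and 53.2 in MAT1A libraries 1, 2 and 3, against 52.6, 51.4 and 50.9 in control libraries. The groups did not overlap, and MAT1A library 3 was close to control library 1. Its log2 change was 0.16 (SE 0.052, adjusted p = 0.0570 by limma; 0.0141 with the replicate block). The 4 other tested symbols in no complex had average levels under 12 in both groups and were not called.

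**Figure D3:**
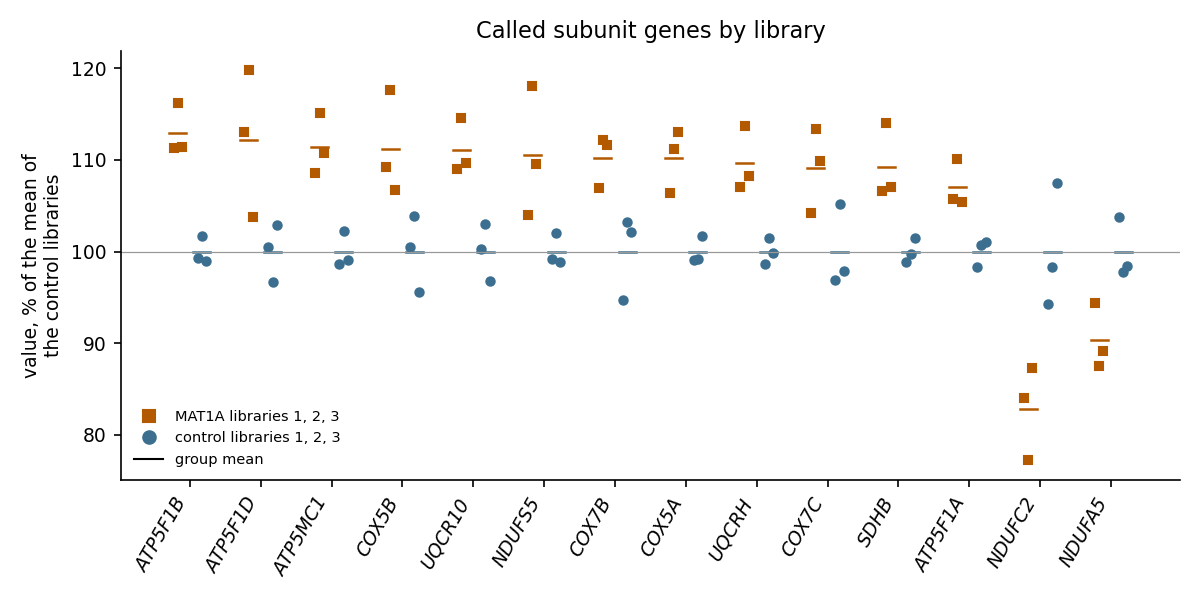
Level of the 14 called subunit genes in each library, as a percent of the mean of the control libraries (y axis; it does not start at 0), by gene (x axis); squares are MAT1A libraries 1 to 3, circles control libraries 1 to 3, and short lines the group means. The groups overlap for COX7C alone, the ATP5F1B libraries of the 2 groups are clearly apart, and NDUFC2 and NDUFA5 lie below 100.

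The other genes of the pathway were compared by lists of their roles, where the share of all genes tested was again 4.01% called higher and 7.4% called lower. Of 57 tested genes listed as assembly factors, 1 was called higher (1.75%) and 0 lower, and the median log2 change was 0.058. The list holds proteins that build the complexes and also the inhibitor ATP5IF1, which the symbol rule counts as a member. Without it there were 56 genes, 1 called higher and a median of 0.057. With the replicate block 3 of the 57 were called higher, LRPPRC and ATP5IF1 besides COA4, against the block's background of 7.57%. The one that rose was COA4, a complex IV assembly factor (chr11:73872667-73876988). It was at 55.6, 57.4 and 55.6 in MAT1A libraries 1, 2 and 3, against 48.7, 46.9 and 48.6 in control libraries, far apart relative to the spread in each group. COA4 had a log2 change of 0.22 (SE 0.042, adjusted p = 0.00220 by limma), and all 6 fits without 1 library kept the call. None of the assembly factors of complex I (15 tested), II (4), III (8) or V (7) was called by limma, edgeR or DESeq2. With limma 2 of complex I, 0 of complex II, 0 of complex III and 3 of complex V had an unadjusted p under 0.05. The share over all genes tested was 26.2%. TIMMDC1 and ACAD9, which build complex I, had log2 changes of 0.050 and 0.052, SDHAF3 and SDHAF2 of complex II 0.096 and 0.086, UQCC1 and BCS1L of complex III 0.032 and 0.089, and ATPAF1 of complex V 0.088.

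Among 23 tested electron carriers and other entry points, 1 was called higher (4.35%) and 0 lower, with a median log2 change of 0.028. With the replicate block 4 were called higher, against the block's background of 7.57%. The gene called was NDUFAB1, the mitochondrial acyl carrier protein, which is also a complex I subunit but falls outside the symbol rule (chr16:23581002-23596356). It was at 78.7, 84.3 and 80.1 in MAT1A libraries 1, 2 and 3, against 71.0, 70.2 and 70.4 in control libraries. The control libraries were nearly level and all MAT1A libraries above them. NDUFAB1 had a log2 change of 0.20 (SE 0.039, adjusted p = 0.00301 by limma), larger than that of any subunit called higher, and all 6 fits without 1 library kept the call. CYCS, cytochrome c itself and named here after its values were seen, was at 230 ± 2.1 in MAT1A cells and 233 ± 9.4 in control cells (SD, n = 3 each).

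Of 18 tested genes of the TCA cycle and pyruvate dehydrogenase, 2 were called higher (11.1%) and 0 lower, and the median log2 change was 0.057. With the replicate block 6 were called higher, against the block's background of 7.57%. OGDH, of the oxoglutarate dehydrogenase complex, was at 166, 171 and 163 in MAT1A libraries 1, 2 and 3, against 158, 154 and 151 in control libraries (log2 change 0.11, adjusted p = 0.0432 by limma). The groups did not overlap for OGDH.

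The known regulators of mitochondrial gene expression were called in both directions: 3 of 19 tested were called higher (15.8%) and 2 lower (10.5%), and the median log2 change was 0.0030. ESRRA, a nuclear receptor that acts on many subunit genes, was at 143, 149.7 and 138 in MAT1A libraries 1, 2 and 3, against 130.2, 129.6 and 130.4 in control libraries (log2 change 0.14, adjusted p = 0.0154 by limma). POLRMT, the mitochondrial RNA polymerase, had a log2 change of 0.13 (adjusted p = 0.0427) and PPARGC1B, a coactivator, one of 0.25 (adjusted p = 0.0432). GABPB1, a subunit of the ETS factor GABP, was at 40.1, 41.3 and 42.8 in MAT1A libraries, against 50.1, 48.5 and 46.5 in control libraries (log2 change -0.22, adjusted p = 0.00547), below all control libraries in all 3 MAT1A libraries. GABPA, also a subunit of GABP and named here after its values were seen, was not called. It was at 23.4 ± 1.0 in MAT1A cells and 24.5 ± 0.71 in control cells (SD, n = 3 each). Its groups overlapped, and its log2 change was -0.060 (adjusted p = 0.543 by limma). CREB1 had a log2 change of -0.19 (adjusted p = 0.00356), which was -0.11 with an adjusted p of 0.0514 once the trend with length and GC content was removed. NRF1, named here after its values were seen, was at 29.9 ± 0.81 in MAT1A cells and 30.1 ± 0.54 in control cells (SD, n = 3 each).

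**Figure D4:**
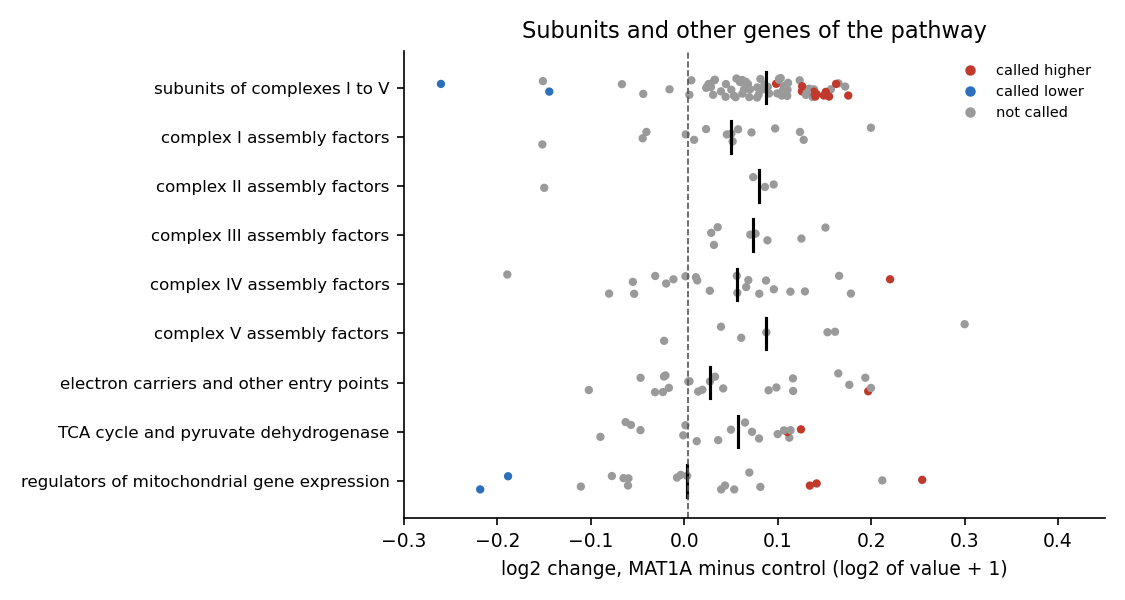
Log2 change (MAT1A minus control, on the scale of log2 of the value + 1; x axis) of each tested gene in the subunit group and in 8 lists of other genes of the pathway (rows); black bars are medians, the dashed line is the median of all genes tested, and points are shifted up and down at random within a row. The subunit genes have a median of 0.087, the 8 lists have lower or nearly equal medians, and the regulators are centred near 0 with called genes on both sides.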

How the data were processed

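RNA of 6 libraries was measured with TruSeq RNA version 2, a kit that does not mark strand, with single-end reads of 36 cycles, per the labels' protocols. STAR 2.6.0c, featureCounts, edgeR and hg38 are named in the submitters' processing notes, without settings. The authors deposited a signal per gene, close to CPM of a scaled library size. The worth of 1 read was found from the lowest values of each column, and 100% of values in each came out as whole reads with a tolerance of 0.001 reads. The values given for 3 reads cover counting error only, while the standard errors and SDs include scatter between libraries.

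The test, limma 3.58.1 in R 4.3.3 with an intensity trend on log2(value + 1), ran on the 12866 genes with at least 1 in at least 3 libraries, with Benjamini-Hochberg adjustment over those genes and a threshold of 0.05. Fold changes on this scale understate the change of low genes. edgeR 4.0.16 had been planned for counts; edgeR and DESeq2 1.42.0 were run on the recovered reads as alternatives, where they called 1426 and 957 genes, against 1468 by limma. Other alternatives were DESeq2 size factors, no filter, a filter at 5, 0.1 in place of 1 as pseudocount, 0.01 as threshold, a replicate block, removal of a trend with exon length and GC content (splines with 4 degrees of freedom), leaving out each library, and NDUFA4 counted with complex I. The fit was tested on simulated data.

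The members, the lists and the alternatives were chosen with earlier results of these data known. Named were, per complex, the gene with the highest level per kb, up to 5 called members per direction with the smallest p, the 2 highest nuclear core members, all paralogues, and, per list, up to 3 called genes per direction or, with none called, the 2 of highest mean; others are marked, and 1 gene meeting these criteria is left out here. Positions and exon lengths are from GENCODE release 29 (GRCh38), which matched 83 of 83 members; 45 members have annotated pseudogenes named after them, up to 17 for COX6C, and reads of near-identical copies are uncertain. Deviations of same-numbered libraries from their group means correlated across genes at 0.246, 0.178 and 0.191 for numbers 1, 2 and 3. Between different numbers the correlations ran from -0.173 to -0.0248. Libraries of the same number thus deviated somewhat alike. No label states a pairing, and the source of this likeness was not tested. Pairs of libraries of a group differed by a chi-square per degree of freedom of 1.86 to 4.39, so none was a duplicate.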

Additional observations from a re-analysis of the deposited data

How the results depend on the processing

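The median log2 change of the members stayed above 0 in all alternatives, and in all fits without 1 library it lay between 0.062 and 0.107. Calls were less stable. Members called higher numbered 12; the count was 27 with the replicate block, 34 after removal of the trend with length and GC content, 42 with both (background over all genes 13.2% called higher), 22 with that trend removed and the medians set back (background 5.89%), 6 with DESeq2 (background 2.48%), 2 at an adjusted p under 0.01 and between 1 and 14 without 1 library. Members called lower numbered 2; the count was 1 with DESeq2 and in each fit with the trend removed, 0 at an adjusted p under 0.01 and between 0 and 2 without 1 library. For complexes I, II, III, IV and V the counts called higher were 9, 1, 4, 5 and 7 with the block, 9, 1, 5, 7 and 11 with the trend removed, 11, 2, 6, 8 and 14 with both, 0, 0, 1, 2 and 3 with DESeq2, and 0, 0, 0, 0 and 2 at an adjusted p under 0.01. Complexes I and III had 4 each with the medians set back, and complex I had 2 with the filter at 5. Without 1 library they ran from 0 to 4, 0 to 1, 0 to 2, 0 to 4 and 1 to 4. The median of complex IV was 0.137 with the trend removed, with or without the block. In those fits the median over all genes tested also rose, from 0.0040 to 0.0232. Leaving out 1 library turned the sign of 12 of the 81 log2 changes, 0 of them called. Of the genes named, COX4I1 (-0.013 to 0.063), COX7A2L (-0.00044 to 0.059) and SDHA (-0.0043 to 0.064) were negative without MAT1A library 2, and NDUFS1 (-0.0024 to 0.021) without MAT1A library 3 and, at -0.0013, without control library 3. The block kept 14 of the 14 calls and the trend fit 13. The cause of these shifts was not tested. With 3 libraries a group, a member that was not called is not shown to be equal between the groups. Sums without ATP5F1B, sums without MAT1A library 2 and the assembly list without ATP5IF1 were added after the values were seen.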
